A study of Mus musculus with 6 samples.

Results

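The zinc finger genes whose symbols run from Zfp900 to Zfp999 were compared between auditory nerves of Vcan knockout mice and those of wildtype mice. They were taken as the rows of the deposited count table whose gene symbol is Zfp9 followed by a pair of digits, which gave 32 of 24062 genes, from Zfp930 to Zfp964. RNA was sequenced from 3 Vcan knockout and 3 wildtype nerves of young adult mice, each library from both cochleae of a single animal; both groups carry the strain label C57BL/6, and C57BL/6J is named for wildtype in the design text. The genotype is labelled only as Vcan knockout, and what the allele removes and on which strain it was made is not given in the sources used here. Versican is a chondroitin sulfate proteoglycan secreted into the extracellular matrix.

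Most of these genes encode KRAB zinc finger proteins. Such a protein binds DNA through a row of C2H2 fingers, each folded around a zinc ion by a pair of cysteines and a pair of histidines, and its KRAB domain recruits the corepressor TRIM28 (KAP1), which brings the histone methyltransferase SETDB1 and heterochromatin protein 1 to the bound site. Many of their known targets are transposable elements. The genes lie in clusters that grew by local duplication, and the content of these clusters is known to differ between mouse strains.

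The longest open reading frame of their GENCODE vM21 transcripts held at least 1 C2H2 finger pattern in 31 genes, with a median of 11 patterns and at most 18, in Zfp945. The exception was Zfp957, whose frame held none with the spacing searched. A KRAB A box pattern was found in 26 of the 32. The genes lay on 11 chromosomes, with 10 on chromosome 17 and 5 each on chromosomes 7 and 8. Chaining genes less than 1 Mb apart gave a group of 7 on chromosome 17 (21565816 to 22867309, GRCm38), a group of 3 on chromosome 8 and a pair on chromosome 13, and left the others single.

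The 250 bases before the annotated starts of Zfp951 and Zfp933, the members with the largest fold changes among those above 1 CPM (counts scaled to library size by TMM), are shown with those of Zfp982 and Zfp984, neighbours of Zfp933 that are described later. Sequences are from RefSeq, GRCm38.p6, 5′ to 3′ on the strand of the gene, and capitals mark CCAAT, the CCAAT box, or ATTGG, the same word on the other strand. Where a gene has several annotated starts, 1 is shown. For Zfp982 the window not shown at 147442864-147443113 also holds the word, and that at 147500436-147500685 does not.
Zfp951, chr5:104860028-104860277, minus strand: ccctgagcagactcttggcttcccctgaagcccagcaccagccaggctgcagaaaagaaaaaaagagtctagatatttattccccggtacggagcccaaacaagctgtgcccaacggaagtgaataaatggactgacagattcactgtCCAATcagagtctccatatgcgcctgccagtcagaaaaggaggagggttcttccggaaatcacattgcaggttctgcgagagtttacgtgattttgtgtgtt
Zfp933, chr4:147848419-147848668, minus strand: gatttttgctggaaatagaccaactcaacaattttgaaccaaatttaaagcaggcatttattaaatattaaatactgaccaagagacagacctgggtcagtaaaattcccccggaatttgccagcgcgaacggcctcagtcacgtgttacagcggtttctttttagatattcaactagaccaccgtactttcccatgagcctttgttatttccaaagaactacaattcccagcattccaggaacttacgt
Zfp982, chr4:147492167-147492416, plus strand: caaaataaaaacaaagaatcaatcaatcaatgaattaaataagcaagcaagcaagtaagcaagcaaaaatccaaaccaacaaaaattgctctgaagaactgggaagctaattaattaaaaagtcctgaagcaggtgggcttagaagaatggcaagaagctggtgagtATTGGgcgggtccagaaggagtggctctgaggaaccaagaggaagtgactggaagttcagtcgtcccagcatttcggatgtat
Zfp984, chr4:147809789-147810038, minus strand: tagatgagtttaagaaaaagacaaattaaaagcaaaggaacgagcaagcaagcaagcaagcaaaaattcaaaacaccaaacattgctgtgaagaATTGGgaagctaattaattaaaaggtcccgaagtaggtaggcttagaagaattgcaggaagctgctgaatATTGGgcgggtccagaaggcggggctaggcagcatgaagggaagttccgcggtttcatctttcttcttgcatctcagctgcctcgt
RefSeq promoters were found for 29 of the 32 genes. CCAAT occurred on either strand in 19 of these (65.5%), against 37.5% of 27025 genes with a promoter of the same length. A gene was counted if the window of any of its annotated starts held the word. Among related genes listed under older symbols, described later, it occurred in 15 of 17 (88.2%), so it was not particular to the members. The word was chosen after the sequences were read, and a match describes letters only. It is not in the window shown for Zfp933.

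Vcan was counted 413, 249 and 248 times in knockout libraries and 697, 864 and 626 times in wildtype libraries, so that the groups did not overlap and no knockout library was near 0. Vcan passed in DESeq2 (adjusted p = 0.0334) and not in edgeR (adjusted p = 0.558). The libraries held 74530860 to 92513887 gene counts. All 10 markers each of spiral ganglion neurons and of Schwann cells were measured, with summed levels of 12093 to 13909 CPM in knockout and 7182 to 12722 CPM in wildtype nerves for the neuron list, and 10098 to 15526 CPM in knockout and 13256 to 19043 CPM in wildtype nerves for the Schwann cell list. The 8 astrocyte markers summed to 692 to 945 CPM in knockout and 929 to 1636 CPM in wildtype nerves, and the 8 oligodendrocyte markers to 1455 to 1920 CPM in knockout and 1499 to 2442 CPM in wildtype nerves. The 7 macrophage markers found summed to 122 to 153 CPM in knockout and 168 to 181 CPM in wildtype nerves. The 10 bone and marrow markers, 1 of them at 0, summed to 94.0 to 168 CPM in knockout and 65.6 to 105 CPM in wildtype nerves, and the 8 hair cell and lateral wall markers to 6870 to 14302 CPM in knockout and 9197 to 16503 CPM in wildtype nerves. Of the 58 markers tested 0 passed in edgeR, 10 had an unadjusted p under 0.05 (17.2%, against 5.2% of all genes), and DESeq2 called 2 (3.45%, against 1.39%). All 8 astrocyte markers had negative log2 fold changes (median −0.69), as had the 7 hair cell and lateral wall markers tested (median −0.64) and 7 of the 8 oligodendrocyte markers (median −0.40). Positive ones were found in 7 of the 8 bone and marrow markers tested (median 0.58) and 7 of the 10 neuron markers (median 0.15). Of the Schwann cell markers 3 were positive and 7 negative (median −0.10), and of the macrophage markers 3 and 4 (median −0.13). The libraries did not group by genotype over all genes: knockout replicate 1 correlated more with wildtype replicate 1 (0.977 on log2 CPM) than with knockout replicates 2 and 3 (0.961 and 0.962). The part of these differences in the zinc finger values was not tested, and in whole nerve fewer cells of a type and less RNA per cell cannot be told apart.

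No Zfp9 gene was present in every library of a genotype and absent from the other. With at most 3 counts in each library of a group and at least 30 in each library of the other taken as all or none, 0 of the 32 genes qualified, against 3 of the 20184 genes with a count (0.0149%). All 31 genes that could be tested were counted in all 6 libraries. The remaining gene, Zfp936 on chromosome 7 (43114166 to 43192109), had 2, 0 and 0 counts in knockout and 0, 0 and 1 counts in wildtype nerves, at or under the floor of 3 counts in each, which at these depths is 0.0324 to 0.0403 CPM. It was not detectable in either genotype.

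In edgeR's quasi-likelihood test with Benjamini-Hochberg adjustment 0 of 31 passed an adjusted p of 0.05, where 0.138% of the 16722 genes tested did. At an unadjusted p under 0.05 there was 1 member, against 5.2% of all genes, and DESeq2 called the same member, Zfp951, against 1.39% of its genes (0.723% for lower in knockout alone). A log2 fold change past 1 in size was seen in 2 members, or 6.45%, against 5.59% of all genes. The groups did not overlap for 3 members, all lower in knockout nerve, or 9.68% of 31, close to the 10.3% of all genes (4.93% for lower alone). The median log2 fold change of the members, knockout over wildtype, was −0.06, with 11 above and 20 below 0, and that of all genes was −0.01. For 26 of the 31 the 95% interval of the log2 fold change lay inside a 2-fold change either way, as it did for 64.4% of all genes tested. The 5 whose intervals reached outside it were Zfp951, Zfp957, Zfp933, Zfp947 and Zfp963. That of Zfp951 did so through its estimate of −1.51 rather than its width (SE 0.24). Zfp964 had a larger SE (0.35) and lay inside.

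**Figure D1:**
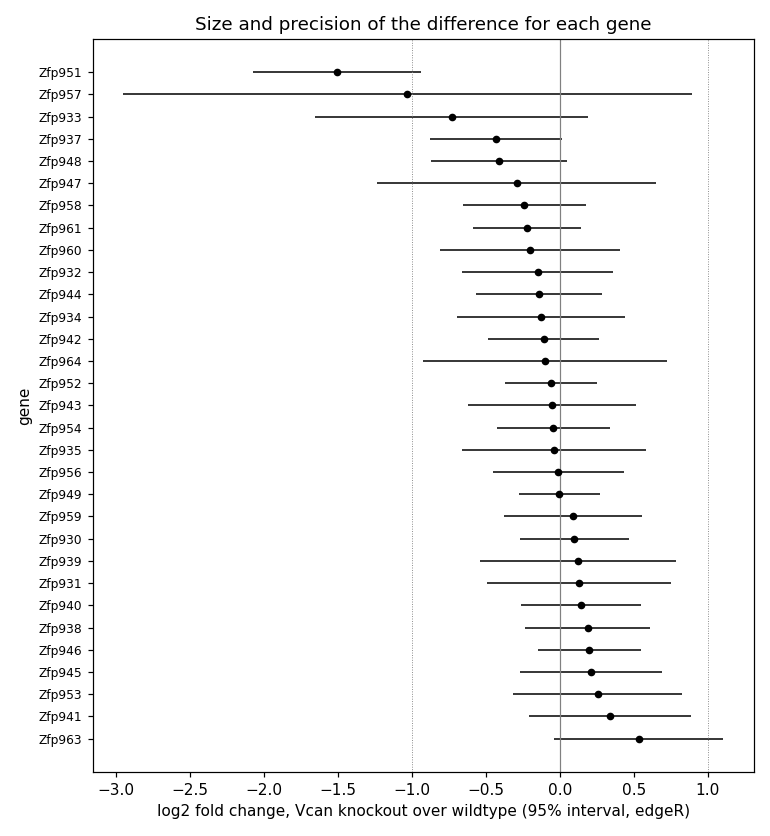
Log2 fold change of each of the 31 tested genes, Vcan knockout over wildtype, with its 95% interval from edgeR (horizontal bars), ordered from lowest to highest; dotted lines mark a 2-fold change. Zfp951 alone has an interval wholly below 0, and 26 intervals lie inside the dotted lines.

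Zfp951 was the member that passed in DESeq2. It is a KRAB zinc finger gene with 10 finger patterns on chromosome 5 (gene identifier 626391, 104802246 to 104860157), lying between the bone matrix genes around Spp1 and a cluster of guanylate-binding protein genes. It had 97, 140 and 142 counts in knockout nerves, against 386, 379 and 324 in wildtype nerves. On the scaled level these were 1.28, 1.52 and 1.65 CPM in knockout and 4.63, 4.22 and 3.79 CPM in wildtype nerves. Every knockout library lay well below every wildtype library, and all held the transcript far above the floor. Zfp951 averaged 1.48 ± 0.187 CPM in knockout and 4.21 ± 0.421 CPM in wildtype nerves (SD, n = 3 each), a level 2.85-fold lower in knockout nerve. It was the 1 member with groups that did not overlap, means at least 2-fold apart and the higher at least 0.5 CPM, a pattern of 1.81% of all genes.

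The log2 fold change of Zfp951 was −1.51 (SE 0.24, 95% interval −2.08 to −0.94), which did not pass in edgeR (adjusted p = 0.142, unadjusted p = 0.00046) and passed in DESeq2 (adjusted p = 3.73e-07). The authors' deposited table, which calls 1.34% of its genes, also lists it as lower, with a log2 fold change of −1.26 and an adjusted p of 2.35e-07 from DESeq2. These values rest on the same counts and are not separate evidence. In the fits that left out each animal in turn the log2 fold change stayed between −1.60 and −1.41. Only 1.2% of the 50-base stretches of the longest Zfp951 transcript are found in genes elsewhere in the genome. The 12 other genes listed within 500 kb were read after the values of Zfp951 were seen. Of these, 0 were called by edgeR (0.138% of all genes) or DESeq2 (1.39% of all). At an unadjusted p under 0.05 in edgeR there was 1 (5.2% of all), and 0 had groups that did not overlap (10.3% of all). These 12 genes are too few to set such counts apart from the shares over all genes. Their log2 fold changes ran from −0.54 to 1.31, the highest in Ibsp, a bone matrix gene.

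Zfp933 (chromosome 4, 147822986 to 147849126, 12 finger patterns) differed between the knockout animals, with overlapping genotypes. Its level was 17.2, 6.95 and 7.15 CPM in knockout replicates 1, 2 and 3, against 18.3, 19.7 and 14.0 CPM in wildtype nerves. Knockout replicate 1 lay among the wildtype libraries and the other pair well below all of them. The means were 10.4 ± 5.84 CPM in knockout and 17.3 ± 2.98 CPM in wildtype nerves (SD, n = 3 each; log2 fold change −0.73, SE 0.39, edgeR adjusted p = 1.00, unadjusted p = 0.101). In the fits that left out each animal in turn the log2 fold change lay between −1.30 and −0.51. The value of −1.30 came without knockout replicate 1 (edgeR adjusted p = 0.212, the lowest over the 13 other settings). Sharing of 50-base stretches with other loci was 1.07% for this gene.

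Zfp937 and Zfp961 were the other members whose groups did not overlap, by small margins. Zfp937 (chromosome 2, 150218077 to 150246738) was at 6.75, 6.21 and 5.84 CPM in knockout and 9.66, 8.001 and 7.73 CPM in wildtype nerves, with a log2 fold change of −0.43 (SE 0.19) and an edgeR adjusted p of 0.986. The gene shared 28.8% of its 50-base stretches with Zfp442, its neighbour on the same chromosome, and since the handling of reads that match more than a single gene is not stated, its level is uncertain. Zfp961 (chromosome 8, 71951048 to 71970333) was at 13.5, 16.02 and 15.9 CPM in knockout and 16.1, 19.4 and 17.5 CPM in wildtype nerves, with a log2 fold change of −0.22 (SE 0.15, edgeR adjusted p = 1.00). It shared 0% of its stretches.

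**Figure D2:**
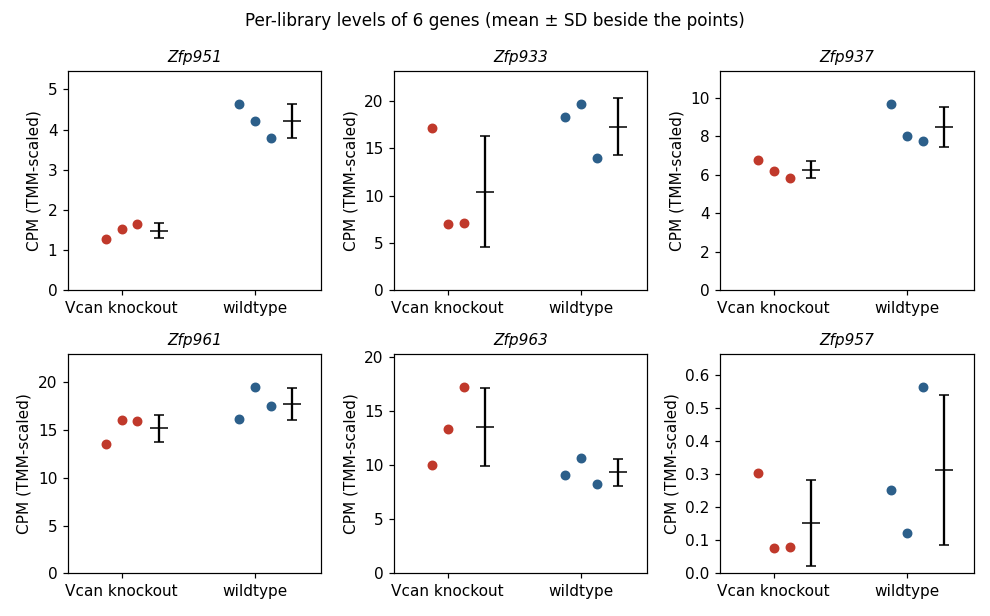
TMM-scaled CPM of 6 genes in each library (points; knockout left, wildtype right; replicates 1 to 3 from left to right), with the mean and SD of the 3 libraries beside them. Zfp951, Zfp937 and Zfp961 have groups that do not overlap, Zfp933 has knockout replicate 1 at 17.2 CPM beside 6.95 and 7.15 CPM, and Zfp957 stays under 0.6 CPM.

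Zfp963, Zfp957 and Zfp933, named like Zfp937 and Zfp961 after their values were seen, held the largest fold changes after Zfp951. Zfp963, of the chromosome 8 group (69741639 to 69749962), had the highest positive one. It was at 10.003, 13.4 and 17.2 CPM in knockout and 9.12, 10.7 and 8.22 CPM in wildtype nerves (log2 fold change 0.53, SE 0.24, edgeR adjusted p = 1.00). Knockout replicate 1 lay inside the wildtype range and the other pair above it. Zfp957 on chromosome 14 (79212355 to 79247367) was the lowest member tested, with 23, 7 and 7 counts in knockout and 21, 11 and 48 counts in wildtype nerves. The groups overlapped widely, and the 95% interval of its log2 fold change, −2.95 to 0.89, spans changes in either direction.

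The 5 remaining members of the highest mean level had an edgeR adjusted p of 1.00 each. Zfp946, a KRAB zinc finger gene of the chromosome 17 group, was at 34.2, 39.7 and 41.8 CPM in knockout and 33.4, 37.4 and 30.02 CPM in wildtype nerves (log2 fold change 0.20, SE 0.15). Its neighbour Zfp943 was at 20.2, 37.2 and 34.8 CPM in knockout and 29.9, 34.0 and 31.9 CPM in wildtype nerves (log2 fold change −0.06, SE 0.24). In Zfp946 the groups overlapped with knockout replicates 2 and 3 on top, and in Zfp943 knockout replicate 1 stood below the other 5 libraries.

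Zfp949 on chromosome 9 (88548020 to 88571086) was the steadiest member. Its level was 27.5, 26.4 and 28.8 CPM in knockout and 27.1, 27.8 and 28.04 CPM in wildtype nerves, with a log2 fold change of −0.00 (SE 0.11, 95% interval −0.28 to 0.27). Its libraries overlapped fully. Zfp938 on chromosome 10 was at 24.2, 31.7 and 32.2 CPM in knockout and 25.8, 29.5 and 22.0 CPM in wildtype nerves, and Zfp932 on chromosome 5 at 21.9, 25.2 and 28.7 CPM in knockout and 30.1, 33.5 and 20.6 CPM in wildtype nerves. In both genes the groups overlapped. Zfp938 averaged 29.4 ± 4.45 CPM in knockout and 25.8 ± 3.78 CPM in wildtype nerves, and Zfp932 averaged 25.3 ± 3.40 CPM in knockout and 28.04 ± 6.68 CPM in wildtype nerves (SD, n = 3 each). Their log2 fold changes were 0.19 (SE 0.18) and −0.15 (SE 0.21). Of the 50-base stretches of Zfp932, 42.6% occur also in the predicted gene Gm15446.

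Per kilobase of annotated exon, Zfp938 had the highest mean level over all libraries (13.0 CPM per kb), followed by Zfp946 (10.3), Zfp932 (8.15), Zfp944 (6.82) and Zfp949 (6.71). Zfp951 stood at 0.313 CPM per kb in knockout and 0.891 CPM per kb in wildtype nerves, and Zfp957 at 0.048 CPM per kb in knockout and 0.097 CPM per kb in wildtype nerves. Of the measured members Zfp957 was lowest on this scale, with Zfp964 (0.362), Zfp934 (0.587), Zfp951 (0.602 over all libraries) and Zfp947 (0.709) next to it. Zfp944, Zfp949 and Zfp943 (6.55) differ on this scale by less than the spread between libraries. The exons counted by the authors are not given, so lengths from GENCODE are approximate.

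In the group of 7 on chromosome 17, duplicated neighbours that lie in a single stretch, knockout replicate 1 was the lowest of the 6 libraries in 4 genes, Zfp942, Zfp943, Zfp944 and Zfp947. Zfp947 was at 0.988, 2.10 and 2.40 CPM in knockout and 1.93, 2.82 and 1.98 CPM in wildtype nerves. Zfp945 went the other way, at 32.6, 21.3 and 21.3 CPM in knockout and 20.5, 21.1 and 23.4 CPM in wildtype nerves. Their median log2 fold change was −0.11, with a range of −0.41 in Zfp948 to 0.21 in Zfp945, and none passed in edgeR (unadjusted p above 0.05 for all 7) or in DESeq2.

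Zfp948, the outermost gene of that group, was at 11.6, 8.42 and 9.17 CPM in knockout and 13.9, 13.4 and 11.4 CPM in wildtype nerves (log2 fold change −0.41, SE 0.19, edgeR adjusted p = 1.00). Groups overlapped slightly, as the highest knockout library lay just above the lowest wildtype library. In the chromosome 8 group Zfp930 was at 25.7 ± 1.06 CPM in knockout and 24.1 ± 3.67 CPM in wildtype nerves, and Zfp964 at 2.65 ± 0.573 CPM in knockout and 2.85 ± 1.06 CPM in wildtype nerves (SD, n = 3 each). The chromosome 13 pair, Zfp934 and Zfp935, had log2 fold changes of −0.13 and −0.04. Log2 fold changes of the members not described singly lay between −0.24 in Zfp958 and 0.34 in Zfp941.

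The members also differed between animals of a genotype. Knockout replicate 1 was the lowest or highest library for 17 of the 31 genes (54.8%), against 39.97% of all genes tested, and wildtype replicate 3 for 11 (35.5%), against 54.6% of all. Wildtype replicate 3 correlated least with the other libraries over all genes (0.947 to 0.957 on log2 CPM). The median position of the members relative to the wildtype mean was −0.01, −0.06 and 0.00 on the log2(CPM + 0.1) scale in knockout replicates 1, 2 and 3 and 0.06, 0.04 and −0.09 in wildtype replicates 1, 2 and 3. Within knockout animals the highest library was at least 2-fold above the lowest in 3 members (Zfp957, Zfp933 and Zfp947), and within wildtype animals in 2 (Zfp957 and Zfp964). These are 9.68% and 6.45% of the members, against 18.2% and 24.5% of all genes tested. The shares of the members rest on 3 and 2 genes, and the difference was not tested. The median ratio of highest to lowest library was 1.33 in members and 1.38 in all genes within knockout animals. Within wildtype animals it was 1.25 and 1.46.

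**Figure D3:**
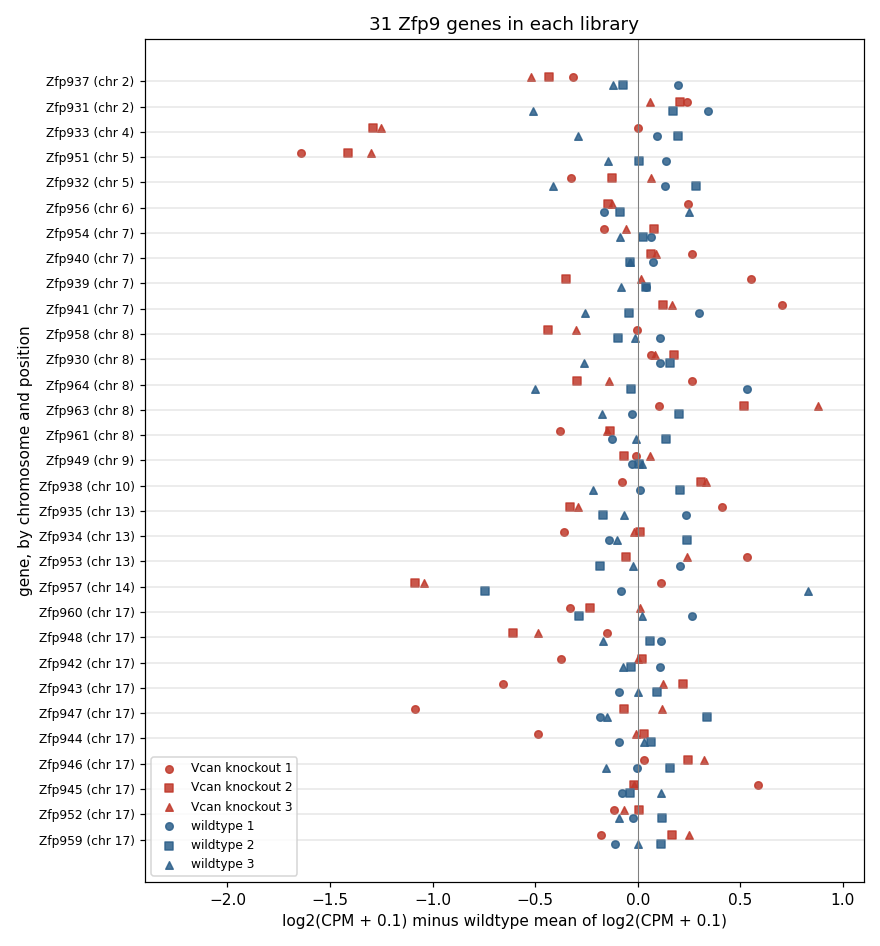
Position of each of the 31 tested genes in each library, as log2(CPM + 0.1) minus the wildtype mean (red, knockout replicates; blue, wildtype replicates), with genes ordered by chromosome and position. The 3 knockout points of Zfp951 lie between −1.64 and −1.30. In 4 other genes all 3 knockout points lie inside the wildtype range, and in 5 others none does.

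Duplicated genes share sequence, and 11 of the 32 members had over 10% of their 50-base stretches in a gene at another locus. The highest was Zfp960 at 82.7%, with 81.4% of its stretches also in Zfp97, and its level of 2.78 ± 0.358 CPM in knockout and 3.19 ± 0.617 CPM in wildtype nerves (SD, n = 3 each) cannot be assigned to it alone. For the 20 members under 5% the median log2 fold change was −0.03 and 2 had groups that did not overlap. For the other 12, of which 11 were tested, the median was −0.13 and 1 did. Over all genes tested the groups did not overlap for 10.3%. The counts of 2 and 1 are too few to set either class apart from that share or from each other.

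Of the 301 numbered Zfp genes outside the range 291 were tested, and 0 passed in edgeR, against 0.138% of all genes. DESeq2 called 5, 2 higher and 3 lower in knockout nerve, against 1.39% of all genes. At an unadjusted p under 0.05 in edgeR there were 11 of the 291, against 5.2% of all genes. The median log2 fold change of the 291 was −0.02. Their groups did not overlap for 15.5%, 23 genes higher and 22 lower in knockout nerve, against 10.3% of all genes. The corepressor genes through which KRAB proteins are known to act, a list of 35 all of which were tested, gave 0 calls in edgeR and DESeq2, 1 unadjusted p under 0.05 in edgeR (Hdac1, a histone deacetylase) and a median of −0.02. Trim28, the KRAB corepressor itself, was at 146 ± 26.9 CPM in knockout and 123 ± 16.3 CPM in wildtype nerves. Cbx5, which encodes heterochromatin protein 1 alpha, was at 180 ± 10.7 CPM in knockout and 185 ± 13.0 CPM in wildtype nerves (SD, n = 3 each). The remodellers Atrx and Chd4 and the histone-binding Rbbp4, with Cbx5 the highest of the list, had log2 fold changes of −0.00, −0.38 and −0.17.

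A further 19 genes of the table now carry Zfp900 to Zfp999 names in RefSeq but are listed under older symbols. The symbol rule left them out, and they were looked up after the data were seen. Of the 14 that were tested, edgeR called 2, both lower in knockout nerve, and DESeq2 called 4, against the shares of 0.138% and 1.39% over all genes. These calls all lay on chromosome 4, between 146449030 and 147812229, on the lower side of Zfp933. Of the 8 tested elsewhere, edgeR and DESeq2 called 0, and 2 had an unadjusted p under 0.05 in edgeR (Zfp970, listed as Gm14420, and Zfp976, listed as 9830147E19Rik).

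Zfp982 (listed as Gm13152; chromosome 4, 147443114 to 147516064) had 5, 9 and 4 counts in knockout and 207, 99 and 208 counts in wildtype nerves, or 0.070 ± 0.026 CPM in knockout and 2.01 ± 0.784 CPM in wildtype nerves (SD, n = 3 each). Every knockout library held a few counts, just above the floor. The log2 fold change was −4.81 (SE 0.53, edgeR adjusted p = 0.0449, DESeq2 adjusted p = 1.6e-13).

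Zfp984 (listed as Gm13157; 147753974 to 147812229), the gene next to Zfp933 in this set, had 118, 221 and 158 counts in knockout and 670, 687 and 739 counts in wildtype nerves. Knockout libraries lay well below wildtype ones without reaching 0. The log2 fold change was −2.07 (SE 0.24, edgeR adjusted p = 0.0489, DESeq2 adjusted p = 4.9e-14). Neither gene kept its edgeR call (a loss also seen for Zfp984 without robust estimation and for both with the replicate number as a block) when any 1 of the 6 libraries was left out, where the lowest adjusted p was 0.0675 for Zfp982 and 0.120 for Zfp984, while the log2 fold changes stayed at −5.14 to −4.60 and −2.26 to −1.94.

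The other chromosome 4 genes of this set lay in both directions. Zfp979 (2610305D13Rik) had 47, 152 and 90 counts in knockout and 325, 487 and 477 in wildtype nerves, and was called lower by DESeq2 (adjusted p = 1.41e-05) and not by edgeR (adjusted p = 0.247). Zfp992 (Gm13251) had 90, 129 and 174 counts in knockout and 37, 33 and 56 in wildtype nerves, and was called higher by DESeq2 (adjusted p = 0.0116) and not by edgeR (adjusted p = 0.388). Zfp985 (Gm13154), with 9, 28 and 34 counts in knockout and 3, 3 and 4 in wildtype nerves, and Zfp981 (Gm13247), with 49, 53 and 48 in knockout and 3, 6 and 23 in wildtype nerves, were called by neither. In the 6 tested chromosome 4 genes of this set the groups did not overlap, 3 higher and 3 lower in knockout nerve, a separation seen in 10.3% of all genes (4.93% for lower alone).

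Within 500 kb of Zfp933, 21 other genes were tested, of which edgeR called 2 (0.138% of all genes) and DESeq2 6 (1.39% of all), and for 10 the groups did not overlap (10.3% of all). Both edgeR calls and 3 of the DESeq2 calls are Zfp982, Zfp984 and Zfp979, already described. The other DESeq2 calls are Zfp534 and a pair of genes that encode no zinc finger protein. Miip, next to Zfp933, had 793, 1003 and 1098 counts in knockout and 1634, 1813 and 2044 in wildtype nerves, lower in knockout (DESeq2 adjusted p = 0.000679, edgeR adjusted p = 0.215). The ribosomal protein pseudogene Rps19-ps3 had 173, 301 and 292 counts in knockout and 83, 117 and 103 in wildtype nerves, higher in knockout (DESeq2 adjusted p = 0.00126, edgeR adjusted p = 0.309). In both the groups did not overlap, so differences in this stretch were not limited to zinc finger genes. Zfp534, an older numbered gene of the same stretch, had 20, 38 and 22 counts in knockout and 0, 0 and 0 counts in wildtype nerves (edgeR adjusted p = 0.17, DESeq2 adjusted p = 0.000261), short of the 30 counts set for all or none. It shares 68.4% of its 50-base stretches with other loci, 53.9% with Zfp987, so that these counts cannot be assigned to it alone. Fv1, the retroviral restriction gene close to Zfp933, had 648, 187 and 224 counts in knockout and 985, 936 and 460 in wildtype nerves, with knockout replicates 2 and 3 at the bottom as in Zfp933. Its groups overlapped and neither tool called it.

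**Figure D4:**
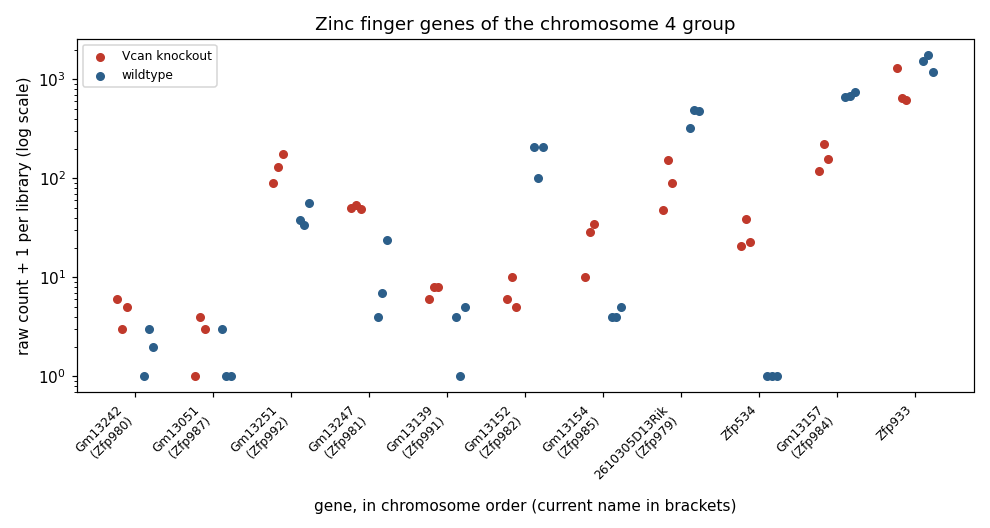
Raw counts plus 1 per library (log scale) of Zfp933, the 9 chromosome 4 genes listed under older symbols and Zfp534, in chromosome order (red, knockout; blue, wildtype; replicates 1 to 3 from left to right). Zfp982 has 4 to 9 counts in knockout and 99 to 208 in wildtype nerves, Zfp534 has 0 in wildtype nerves, and Zfp933 has 616 to 1303 in knockout and 1194 to 1768 in wildtype nerves.

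All 9 chromosome 4 genes under older symbols share sequence with other loci, from 11.9% of 50-base stretches in Zfp982 to 92.1% in Zfp987. Zfp984 shares 46.4% with the predicted gene Gm13212. Zfp933, at 1.07%, and Zfp951, at 1.2%, share less. The part of read sharing in the chromosome 4 differences was not tested.

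**Figure D5:**
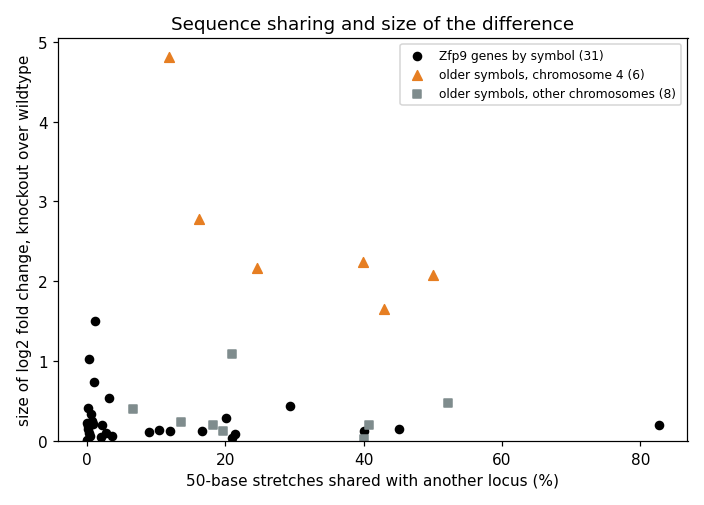
Size of the log2 fold change, knockout over wildtype, against the percentage of 50-base stretches shared with a gene at another locus, for the 31 tested genes by symbol (black), 6 chromosome 4 genes under older symbols (orange) and 8 on other chromosomes (grey). The orange points all lie above the black ones, of which Zfp951 is the highest.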

How the data were processed

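Auditory nerves were microdissected, total RNA was purified and TruSeq libraries were made, per the labels' protocols. The build mm10 and the tools HTSeq and DESeq2 are named in the submitters' processing notes. Their versions, the aligner, the annotation and the use of strand are not given there. The authors deposited raw counts per gene. The same deposited table holds the authors' mean normalised count (a signal), log2 fold change with its standard error, test statistic (a score), p-value and adjusted p-value, which were used only where the text names that table.

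The 5 symbols on 2 rows with identical counts were joined, leaving 24062. Genes were kept by filterByExpr (16722), scaled by TMM (factors 0.964 to 1.02) and tested with robust quasi-likelihood F tests, 2-sided, in edgeR 4.0.16 (R 4.3.3), with Benjamini-Hochberg adjustment over all genes and a threshold of 0.05; DESeq2 1.42.0 was an alternative. The standard error is the log2 fold change divided by the square root of F, and 95% intervals use the test's degrees of freedom. CPM are TMM-scaled, with SDs over 3 libraries. Floors of 3 counts cover counting error only. The pipeline was tested on simulated counts. No pair of libraries agreed within sampling noise (lowest chi-square per degree of freedom 39.9). Each library is 1 mouse, so the spread joins animals, dissection and library preparation.

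Coordinates and current names come from RefSeq (GRCm38.p6, the assembly of mm10) by gene identifier, and exon lengths, transcripts and open reading frames from GENCODE vM21. Finger patterns were read as 2 residues between the cysteines, 12 to the first histidine and 3 to 5 between the histidines.

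The members and lists were chosen with earlier results of these data known. Described with each library's value were members called, all or none, or not overlapping with means at least 2-fold apart and the higher at least 0.5 CPM (Zfp951 alone), then the 5 remaining of highest mean CPM; Zfp933, Zfp937, Zfp961, Zfp963, Zfp957, Zfp947, Zfp945, Zfp948 and the genes under older symbols were added after their values were seen. Neighbours were to be read for members that were called or all or none; as there were 0, those of Zfp951 and Zfp933 were read instead. The alternatives were other scalings, filters and tools, the replicate number as a block, and leaving out each library.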

Additional observations from a re-analysis of the deposited data

How the results depend on the processing

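Over 13 other settings, 0 of 32 members were called in 12 and 1, Zfp951, in DESeq2. The count of all-or-none members stayed at 0 under every floor, fold and left-out library tried. The 23 calls over all genes became 252 with DESeq2, 3 with the replicate number as a block and 3 to 14 without each library in turn. The 2 calls among the genes under older symbols became 4 with DESeq2, 1 without robust estimation, 0 with the block and 0 without any 1 library (a set and alternatives chosen after seeing the data). Animals of the same number in the sample titles had correlated deviations of 0.43, 0.22 and −0.15, which does not show a pairing. The table's column names number knockout animals 2 and 3 as 3 and 4; by those names only 2 pairs exist (0.43 and 0.21), too few to decide. Under the block Zfp951 had a log2 fold change of −1.51 (adjusted p = 0.513, against 0.126 to 0.651 over the edgeR alternatives). The log2 fold change kept its sign in every setting that gave a fit for 16 of the 31 members tested, among them Zfp951 (−1.60 to −1.41), Zfp933 (−1.30 to −0.51) and Zfp937 (−0.50 to −0.33). Scaling moved the median of all genes by under 0.1. With 3 animals a group, the intervals of 5 of the 31 members reached past a 2-fold change, that of Zfp951 through its estimate rather than its width.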

Other observations

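Of the 301 numbered Zfp genes outside the range, DESeq2 called 5, against 1.39% of all genes. These were chosen for mention after their values were seen, and edgeR called 0 of them. Zfp534 of the chromosome 4 stretch and Zfp459 of a chromosome 13 cluster were higher in knockout nerve, Zfp459 with 314, 360 and 368 counts in knockout and 133, 210 and 137 in wildtype nerves. Zfp772, Zfp433 and Zfp781 were lower. Zfp772, which lies beside the member Zfp954 on chromosome 7, had 498, 552 and 490 counts in knockout and 1010, 1386 and 1043 in wildtype nerves (log2 fold change −1.12, edgeR adjusted p = 0.167), while Zfp954 had a log2 fold change of −0.05. Zfp433 and Zfp781, on chromosome 10, had log2 fold changes of −1.38 and −0.97, and 94.1% and 96.3% of their 50-base stretches occur in another gene.

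In Zfp429, of the same chromosome 13 cluster as Zfp459 and the member Zfp953, knockout replicate 2 had 318 counts beside 32 and 27 in the other knockout nerves, against 433, 626 and 447 in wildtype nerves. It was called by neither tool.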
